A study of Mus musculus with 10 samples.

Results

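The smooth muscle contractile and regulatory genes are a list of 35 mouse genes, matched by symbol to the probe sets that the platform's annotation assigns to 1 gene. By role, 11 belong to the thin filament and 2 to myosin, 11 are cytoskeletal or adhesion proteins, 3 are ion channel subunits, 6 are kinases, phosphatase subunits or enzymes of cyclic GMP signalling, and 2 are transcriptional regulators. All 35 had a probe set, out of 18194 genes with one, and together they held 81 of the 34945 single-gene probe sets. A gene was read by its probe set with the highest mean, and genes with a mean log2 signal under 4.47 were not tested. That left 34 members among 14696 tested genes. Synm, which encodes the intermediate filament protein synemin, was the member under this limit, at 4.17 to 4.90 over the 10 samples.

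Smooth muscle shortens when myosin heads pull on actin filaments. Calcium that enters through voltage-gated channels binds calmodulin, calmodulin activates myosin light chain kinase, and the kinase phosphorylates the regulatory light chain of myosin, while myosin phosphatase reverses this step and cyclic GMP signalling relaxes the cell. Many of these genes are switched on by serum response factor (SRF), a protein that binds a DNA element called the CArG box, together with its muscle coactivator myocardin. In the gallbladder a layer of smooth muscle around the epithelium contracts to expel bile through the cystic duct.

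Total RNA of mouse embryos at 15 dpc (days post coitum) was measured on Affymetrix arrays in 10 samples, as 5 groups of 2. Gallbladder came from ICR and from B6 embryos, each wild type or Sox17+/-, and the fifth group was cystic duct from ICR wild type embryos. Sox17+/- marks embryos heterozygous for Sox17, a transcription factor of the gallbladder epithelium, and the sources used here do not describe the allele. Cystic duct was measured in wild type ICR embryos alone, so no group shows it in Sox17+/- or B6 embryos. The replicates are biological per the series' design, but no label names an animal, a litter or a pool, so p-values measure the spread between these samples, and 2 samples a group limit the precision.

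Values are log2 signals, on which a difference of 1 is a doubling. Sox17 itself read 9.52 and 9.24 in ICR wild type gallbladder, 7.65 and 7.90 in ICR Sox17+/-, 9.29 and 9.04 in B6 wild type, 8.03 and 7.91 in B6 Sox17+/- and 8.28 and 7.63 in cystic duct. In each strain both Sox17+/- gallbladder samples lay below both wild type samples. Epithelial marker genes gave a summed level of 13.46 to 14.09 in gallbladder and of 13.55 and 13.59 in cystic duct. The 2 cystic duct samples were the least alike pair, with 3565 of the tested genes differing by over 1 log2 unit between them, against 18 to 609 genes within the 4 gallbladder pairs. As deposited, the interquartile range, the width of the middle of a sample's values, was 2.75 in cystic duct replicate 2. It was 3.46 to 3.84 in the other samples, and the normalization used here gave all samples the same distribution. Replicate 1 of ICR wild type gallbladder read 4 members far below every other gallbladder sample, as described with those members.

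Over the 34 tested members, the median deviation of a sample from each member's mean over all samples was 0.10 to 0.41 in the 8 gallbladder samples and -1.07 and -0.70 in the cystic duct samples. The cystic duct group had the lowest of the 5 group means for 31 of the 34 members. Both cystic duct samples lay below all 8 gallbladder samples in 27 of 34 members, a pattern that held in 16.3% of all tested genes.

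**Figure D1:**
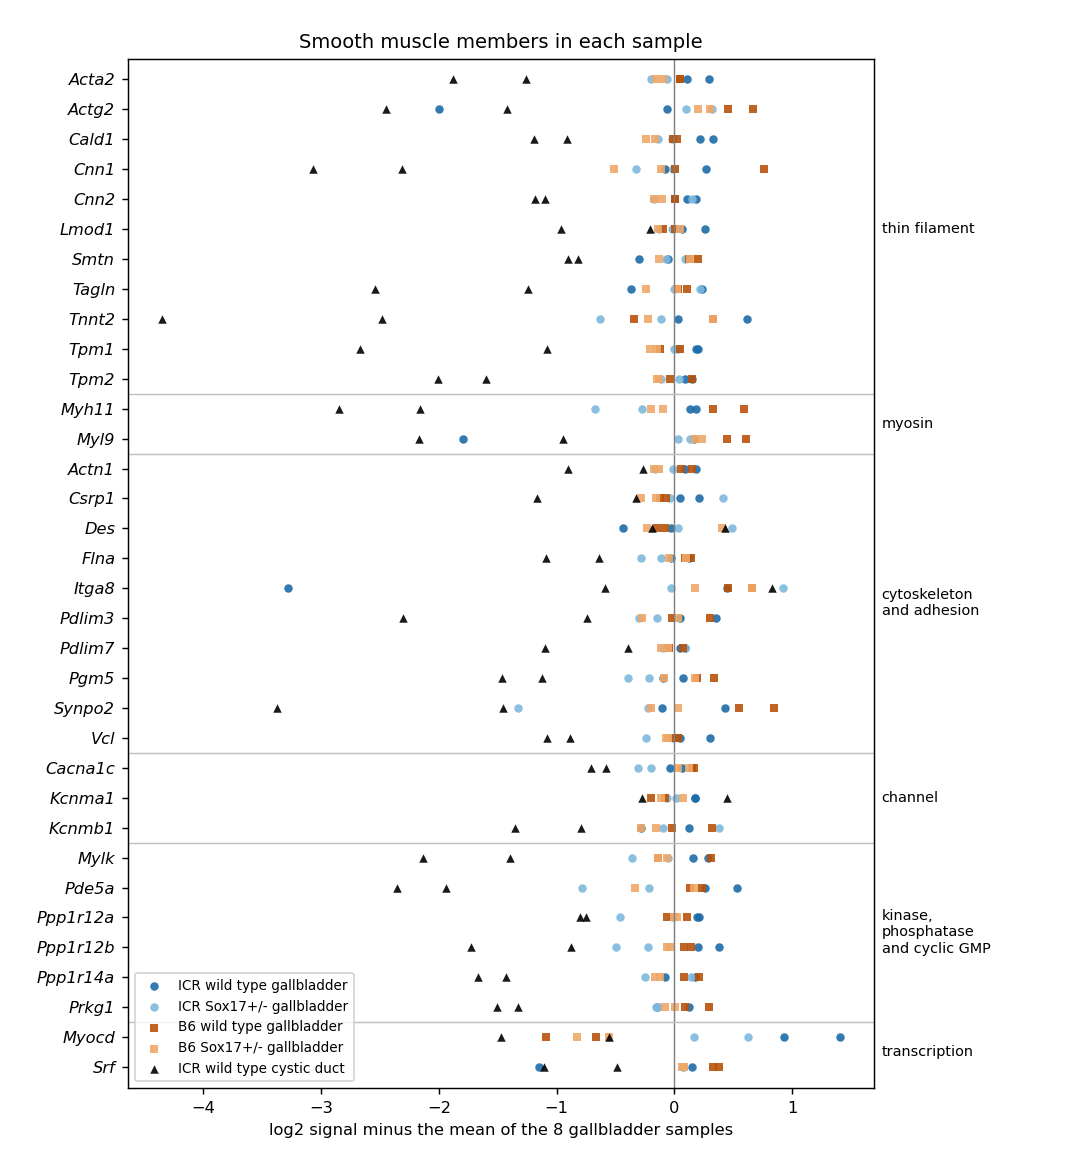
Log2 signal of each tested member in each of the 10 samples, as the difference from the mean of the 8 gallbladder samples (x axis), with members on the y axis grouped by role and samples coloured by group. The black triangles of cystic duct lie left of the gallbladder points in 27 of 34 members, and 1 ICR wild type gallbladder sample lies far to the left for Actg2, Myl9, Itga8 and Srf.

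Promoter windows from RefSeq (build GRCm38.p6, 250 bases before to 50 after the annotated start) were matched by symbol for 31 members. Tagln, Actg2, Myh11 and Myocd were not matched. A CArG box, searched by its consensus, which reads the same on both strands, was found in the windows of Cnn2, Myl9, Vcl and Srf. These are 4 of 31 members (12.9%), while 488 of the 27025 genes with a window (1.81%) hold one. The stretches around the boxes are printed because they show the element by which SRF is known to act on such genes, with the box in capitals and each read along the gene's strand. The first base of the box lies 56 bases before the start in Cnn2 (chr10:79988504-79988593, plus strand), 161 in Myl9 (chr2:156775263-156775352, plus strand) and 227 in Vcl (chr14:20929148-20929220, plus strand). Srf (chr17:46556175-46556284, minus strand) has 2 boxes, 82 and 62 bases before its start.
Cnn2: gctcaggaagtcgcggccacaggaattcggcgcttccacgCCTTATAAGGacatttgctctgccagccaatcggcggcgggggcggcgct
Myl9: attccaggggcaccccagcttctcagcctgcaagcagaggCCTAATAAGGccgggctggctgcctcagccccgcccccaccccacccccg
Vcl: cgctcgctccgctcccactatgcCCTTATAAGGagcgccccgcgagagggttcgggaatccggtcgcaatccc
Srf: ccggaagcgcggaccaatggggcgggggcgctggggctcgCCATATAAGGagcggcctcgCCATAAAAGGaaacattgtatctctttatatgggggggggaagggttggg
A match describes these letters alone, and other windows were not searched. In the comparison of cystic duct with gallbladder described next, Cnn2 and Vcl were among the members that fell, and Myl9 and Srf were not. By the set that reads each gene, Myl9 and Srf were low in ICR wild type gallbladder replicate 1. Without that sample Myl9 went from -0.75 to -1.74 and Srf from -0.30 to -0.96.

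Wild type cystic duct was compared with wild type gallbladder in ICR embryos to ask how the duct differs from the organ it drains. Smooth muscle genes were lower in the duct: 25 of the 34 tested members passed the test and all 25 fell, while 0 rose. Among all 14696 genes, 14.3% passed in either direction and 8.61% passed as lower. The median member change was -1.28 on the log2 scale, where the median of all genes was -0.03, and 32 of 34 members were below 0. Calls are an adjusted p under 0.05 in limma (Benjamini-Hochberg over all tested genes), and 28 members, all of them below 0, had an unadjusted p under 0.05, as did 31.7% of all genes in either direction. In whole tissue, fewer muscle cells and less RNA per muscle cell cannot be told apart.

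**Figure D2:**
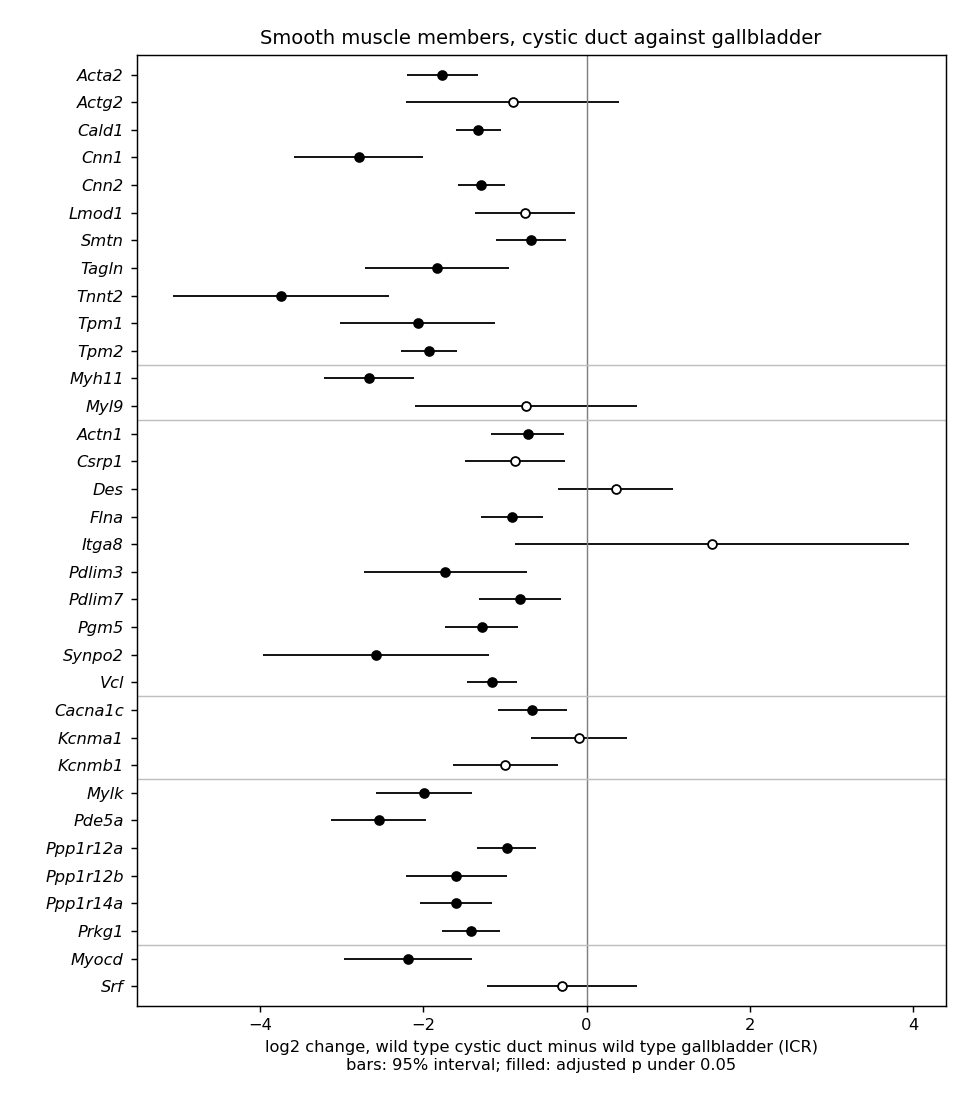
Log2 change of each tested member in ICR wild type cystic duct minus ICR wild type gallbladder (x axis, n = 2 samples each), with members on the y axis grouped by role, bars for the 95% interval and filled points for an adjusted p under 0.05 in limma. The 25 filled points all lie below 0, from -3.74 for Tnnt2 to -0.66 for Cacna1c, and Des and Itga8 are the 2 members above 0.

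Of the 11 thin filament members, 9 fell and 2 did not pass. Acta2, the smooth muscle alpha-actin, read 13.94 and 14.13 in ICR wild type gallbladder, 13.64 and 13.78 in ICR Sox17+/-, 13.89 and 13.89 in B6 wild type, 13.68 and 13.74 in B6 Sox17+/- and 11.95 and 12.58 in cystic duct. It fell by 1.77 (SE 0.19) on the log2 scale, 3.41-fold, with a limma adjusted p of 0.00213, and the lowest gallbladder sample stood above the higher cystic duct sample by more than the spread of either pair. Tpm2, a tropomyosin, read 12.59 and 12.65 in ICR wild type gallbladder, 12.38 and 12.54 in ICR Sox17+/-, 12.64 and 12.46 in B6 wild type, 12.35 and 12.36 in B6 Sox17+/- and 10.49 and 10.89 in cystic duct. The Tpm2 change of -1.93 (SE 0.15, limma adjusted p 0.00138) had the lowest p of all members here. Tpm1, the other tropomyosin, read 12.21 and 12.20 in ICR wild type gallbladder, 12.05 and 12.01 in ICR Sox17+/-, 12.06 and 11.89 in B6 wild type, 11.81 and 11.87 in B6 Sox17+/- and 9.34 and 10.94 in cystic duct. Its change was -2.07 (SE 0.41), and the cystic duct samples were themselves apart, with the lower one at replicate 1. It lost its call without either ICR wild type gallbladder sample (limma adjusted p up to 0.0762). Cald1, caldesmon, which binds actin and tropomyosin and restrains myosin, read 13.30 and 13.19 in ICR wild type gallbladder, 12.83 and 12.96 in ICR Sox17+/-, 12.99 and 12.96 in B6 wild type, 12.81 and 12.73 in B6 Sox17+/- and 11.78 and 12.06 in cystic duct. Cald1 fell by 1.33 (SE 0.12), and no gallbladder sample overlapped the duct samples.

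Calponins are actin-binding proteins that slow the myosin motor. Cnn1, the smooth muscle calponin, read 8.38 and 8.73 in ICR wild type gallbladder, 8.13 and 8.45 in ICR Sox17+/-, 9.22 and 8.46 in B6 wild type, 8.35 and 7.95 in B6 Sox17+/- and 5.39 and 6.14 in cystic duct. With -2.79 (SE 0.34, limma adjusted p 0.00325, 6.91-fold) it had one of the largest falls. Cnn2, a calponin also made outside muscle, read 11.94 and 11.87 in ICR wild type gallbladder, 11.91 and 11.59 in ICR Sox17+/-, 11.77 and 11.77 in B6 wild type, 11.59 and 11.66 in B6 Sox17+/- and 10.57 and 10.66 in cystic duct. It fell by 1.29 (SE 0.13), and both duct samples lay below every gallbladder sample. Tagln, transgelin (SM22), an actin-crosslinking protein, read 12.32 and 11.72 in ICR wild type gallbladder, 12.30 and 12.09 in ICR Sox17+/-, 12.19 and 12.12 in B6 wild type, 12.11 and 11.85 in B6 Sox17+/- and 9.54 and 10.85 in cystic duct. Tagln fell by 1.83 (SE 0.38), but the call rested on ICR wild type gallbladder replicate 1, without which the limma adjusted p was 0.108. Smtn, smoothelin, a protein of contractile smooth muscle, read 7.68 and 7.43 in ICR wild type gallbladder, 7.83 and 7.66 in ICR Sox17+/-, 7.93 and 7.86 in B6 wild type, 7.60 and 7.87 in B6 Sox17+/- and 6.92 and 6.83 in cystic duct. It fell by 0.68 (SE 0.19) with a limma adjusted p of 0.0462, close to the threshold.

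Tnnt2, the troponin T known from heart muscle, had the largest change of any member. It read 8.76 and 9.35 in ICR wild type gallbladder, 8.10 and 8.61 in ICR Sox17+/-, 9.06 and 8.39 in B6 wild type, 9.05 and 8.51 in B6 Sox17+/- and 6.25 and 4.37 in cystic duct. The change was -3.74 (SE 0.57, 13.4-fold, limma adjusted p 0.00657), and the second duct sample lay under the limit of 4.47 used to leave out dim genes, so the fold depends on a signal near background. Actg2, the enteric gamma-actin, read 8.85 and 10.79 in ICR wild type gallbladder, 10.95 and 11.17 in ICR Sox17+/-, 11.52 and 11.31 in B6 wild type, 11.05 and 11.15 in B6 Sox17+/- and 8.40 and 9.43 in cystic duct. Its change of -0.91 (SE 0.57, 95% interval -2.21 to 0.40) did not pass, and ICR wild type gallbladder replicate 1 lay close to the duct samples and below the other 7 gallbladder samples. Lmod1, leiomodin, which starts new actin filaments, was at -0.75 (SE 0.26, limma adjusted p 0.097) and also did not pass.

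Of the 2 myosin members 1 fell. Myh11, the smooth muscle myosin heavy chain and a marker of the differentiated cell, read 10.06 and 10.01 in ICR wild type gallbladder, 9.21 and 9.60 in ICR Sox17+/-, 10.47 and 10.21 in B6 wild type, 9.67 and 9.78 in B6 Sox17+/- and 7.03 and 7.72 in cystic duct. It fell by 2.67 (SE 0.24), 6.34-fold, with a limma adjusted p of 0.00166, and the duct and gallbladder samples did not overlap. Myl9, the regulatory light chain that the kinase phosphorylates, read 10.48 and 12.44 in ICR wild type gallbladder, 12.41 and 12.31 in ICR Sox17+/-, 12.89 and 12.72 in B6 wild type, 12.51 and 12.45 in B6 Sox17+/- and 10.11 and 11.33 in cystic duct. Its change of -0.75 (SE 0.59, 95% interval -2.11 to 0.61) did not pass. As with Actg2, replicate 1 of ICR wild type gallbladder stood among the duct samples.

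All 6 kinase, phosphatase and cyclic GMP members fell. Mylk, myosin light chain kinase, read 11.73 and 11.60 in ICR wild type gallbladder, 11.08 and 11.38 in ICR Sox17+/-, 11.75 and 11.30 in B6 wild type, 11.37 and 11.30 in B6 Sox17+/- and 9.30 and 10.04 in cystic duct. It fell by 1.99 (SE 0.25), 3.97-fold. Ppp1r14a, the muscle inhibitor of myosin phosphatase, read 8.74 and 8.49 in ICR wild type gallbladder, 8.71 and 8.32 in ICR Sox17+/-, 8.77 and 8.64 in B6 wild type, 8.44 and 8.40 in B6 Sox17+/- and 7.13 and 6.89 in cystic duct. Its change was -1.60 (SE 0.19), with close agreement inside the duct pair. The kinase and this phosphatase inhibitor both favour contraction.

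Ppp1r12a, the targeting subunit of myosin phosphatase, read 10.75 and 10.74 in ICR wild type gallbladder, 10.08 and 10.53 in ICR Sox17+/-, 10.65 and 10.48 in B6 wild type, 10.57 and 10.54 in B6 Sox17+/- and 9.79 and 9.74 in cystic duct. Ppp1r12b, its muscle-rich relative, read 8.68 and 8.86 in ICR wild type gallbladder, 7.99 and 8.25 in ICR Sox17+/-, 8.62 and 8.56 in B6 wild type, 8.42 and 8.44 in B6 Sox17+/- and 6.75 and 7.60 in cystic duct. The changes were -0.98 (SE 0.16) and -1.59 (SE 0.27), and neither gene had a gallbladder sample as low as the duct samples. Prkg1, the cyclic GMP-dependent kinase that mediates relaxation, read 9.07 and 9.34 in ICR wild type gallbladder, 9.08 and 9.06 in ICR Sox17+/-, 9.31 and 9.51 in B6 wild type, 9.14 and 9.22 in B6 Sox17+/- and 7.71 and 7.89 in cystic duct. Prkg1 fell by 1.41 (SE 0.15). Pde5a, the phosphodiesterase that breaks cyclic GMP down, read 10.12 and 10.39 in ICR wild type gallbladder, 9.08 and 9.64 in ICR Sox17+/-, 10.09 and 9.99 in B6 wild type, 9.53 and 10.02 in B6 Sox17+/- and 7.51 and 7.92 in cystic duct. At -2.54 (SE 0.25, 5.83-fold, limma adjusted p 0.00211) it had the largest fall of this group, and ICR Sox17+/- gallbladder lay between wild type and duct.

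Among the 10 tested cytoskeletal and adhesion members 7 fell. Vcl, vinculin, which links actin to adhesion sites, read 11.94 and 11.69 in ICR wild type gallbladder, 11.40 and 11.63 in ICR Sox17+/-, 11.67 and 11.64 in B6 wild type, 11.59 and 11.57 in B6 Sox17+/- and 10.56 and 10.76 in cystic duct. It fell by 1.16 (SE 0.13) with a limma adjusted p of 0.00283. Pgm5, aciculin, a protein of muscle adhesion sites, read 8.23 and 8.05 in ICR wild type gallbladder, 7.94 and 7.76 in ICR Sox17+/-, 8.34 and 8.49 in B6 wild type, 8.07 and 8.33 in B6 Sox17+/- and 7.03 and 6.69 in cystic duct. Pgm5 fell by 1.28 (SE 0.19), and the 2 duct samples were the lowest of the 10. Flna, the actin crosslinker filamin A, read 11.15 and 11.00 in ICR wild type gallbladder, 10.92 and 10.75 in ICR Sox17+/-, 11.12 and 11.17 in B6 wild type, 10.98 and 11.13 in B6 Sox17+/- and 9.93 and 10.38 in cystic duct. Flna fell by 0.91 (SE 0.16), and its limma adjusted p rose from 0.0111 to 0.0648 without ICR wild type gallbladder replicate 1.

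The other members of this role that fell are actinin or proteins that bind it, and actinin anchors thin filaments at the dense bodies of smooth muscle. Synpo2, synaptopodin 2, read 8.11 and 8.64 in ICR wild type gallbladder, 6.88 and 7.99 in ICR Sox17+/-, 9.06 and 8.76 in B6 wild type, 8.02 and 8.24 in B6 Sox17+/- and 4.84 and 6.76 in cystic duct. Pdlim3, an actinin-binding LIM protein, read 10.13 and 9.82 in ICR wild type gallbladder, 9.47 and 9.62 in ICR Sox17+/-, 10.07 and 9.75 in B6 wild type, 9.80 and 9.49 in B6 Sox17+/- and 7.47 and 9.03 in cystic duct. In both genes duct replicate 1 was over 1 log2 unit below replicate 2, and the changes of -2.58 (SE 0.60) and -1.73 (SE 0.43) carried the widest errors of the members called in this role. Pdlim7, the LIM protein enigma, read 9.69 and 9.65 in ICR wild type gallbladder, 9.69 and 9.50 in ICR Sox17+/-, 9.55 and 9.67 in B6 wild type, 9.48 and 9.54 in B6 Sox17+/- and 8.49 and 9.20 in cystic duct. Actn1, alpha-actinin 1, read 10.39 and 10.48 in ICR wild type gallbladder, 10.14 and 10.29 in ICR Sox17+/-, 10.45 and 10.36 in B6 wild type, 10.17 and 10.12 in B6 Sox17+/- and 9.40 and 10.03 in cystic duct. Their changes were -0.82 (SE 0.22) and -0.72 (SE 0.19), with limma adjusted p-values of 0.0435 and 0.0453, close to the threshold.

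Des, desmin, the intermediate filament of muscle, did not pass and was above 0. It read 8.11 and 7.71 in ICR wild type gallbladder, 8.64 and 8.18 in ICR Sox17+/-, 7.999 and 8.06 in B6 wild type, 8.55 and 7.91 in B6 Sox17+/- and 7.96 and 8.57 in cystic duct. Its change was 0.36 (SE 0.30, 95% interval -0.35 to 1.06), and the groups overlapped. Itga8, integrin alpha 8, was at 1.54 (SE 1.04), and Csrp1, a LIM protein of smooth muscle, was at -0.87 (SE 0.27, limma adjusted p 0.0648).

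Of the 3 channel members 1 fell. Cacna1c, the pore of the L-type calcium channel, read 6.21 and 6.32 in ICR wild type gallbladder, 6.05 and 5.94 in ICR Sox17+/-, 6.40 and 6.42 in B6 wild type, 6.28 and 6.37 in B6 Sox17+/- and 5.67 and 5.54 in cystic duct. It fell by 0.66 (SE 0.18) with a limma adjusted p of 0.0483, the weakest call among the 25. Kcnmb1, the smooth muscle subunit of the calcium-activated potassium channel, read 4.86 and 5.27 in ICR wild type gallbladder, 5.05 and 5.52 in ICR Sox17+/-, 5.46 and 5.12 in B6 wild type, 4.99 and 4.86 in B6 Sox17+/- and 4.35 and 3.79 in cystic duct. Its change of -0.99 (SE 0.28, limma adjusted p 0.0511) just missed the threshold, and all its signals were near the limit of 4.47. Kcnma1, the pore of that potassium channel, was at -0.09 (SE 0.26) by its brightest set. Another of its sets (1428948_at), with dim signals, read lower in the duct. It gave 4.83 and 5.75 in ICR wild type gallbladder and 3.11 and 4.72 in cystic duct.

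Myocd, the myocardin gene, read 9.59 and 9.11 in ICR wild type gallbladder, 8.80 and 8.34 in ICR Sox17+/-, 7.51 and 7.09 in B6 wild type, 7.63 and 7.36 in B6 Sox17+/- and 6.71 and 7.63 in cystic duct. It fell in the duct by 2.19 (SE 0.34), 4.55-fold, with a limma adjusted p of 0.00719. Both duct samples lay below the 4 ICR gallbladder samples, but duct replicate 2 was as high as the B6 gallbladder samples. Srf read 6.22 and 7.52 in ICR wild type gallbladder, 7.44 and 7.44 in ICR Sox17+/-, 7.75 and 7.70 in B6 wild type, 7.45 and 7.43 in B6 Sox17+/- and 6.26 and 6.88 in cystic duct. Its change of -0.30 (SE 0.40, 95% interval -1.21 to 0.62) did not pass.

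Actg2, Myl9, Itga8 and Srf were the 4 of 34 members that ICR wild type gallbladder replicate 1 read over 1 log2 unit below all 7 other gallbladder samples. Of all tested genes 3.12% did so. Replicates 1 and 2 gave 8.85 and 10.79 for Actg2, 10.48 and 12.44 for Myl9, 6.06 and 9.80 for Itga8, and 6.22 and 7.52 for Srf. Without replicate 1 the cystic duct change of Actg2 went from -0.91 to -1.88 and passed (limma adjusted p 0.0389), in a fit that called 2.87% of all tested genes as lower. Myl9 went from -0.75 to -1.74 (limma adjusted p 0.0632), Srf from -0.30 to -0.96 (0.117 in limma after adjustment) and Itga8 from 1.54 to -0.33 (0.769 in limma after adjustment). Without replicate 2 the opposite occurred for Itga8, which passed as higher in the duct at 3.39 (limma adjusted p 0.0207), in a fit that called 4.61% of all tested genes as higher. By the set that reads each gene, the change in these 4 members depends on which of the 2 ICR wild type gallbladder samples is used. The other sets of Itga8 (1427489_at) and Srf (1418256_at) did not read replicate 1 low. Replicates 1 and 2 gave 6.78 and 6.59 for Itga8 by that set, and 7.52 and 7.10 for Srf.

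Leaving out each sample in turn left 17 to 27 members called, and 16 of the 25 calls passed in all 10 of these fits. The other 9 were Tagln, Tpm1, Smtn, Flna, Actn1, Synpo2, Pdlim3, Pdlim7 and Cacna1c. Smtn, Actn1, Pdlim3, Pdlim7 and Cacna1c lost their calls without any 1 of the 8 gallbladder samples, with limma adjusted p-values up to 0.209, and Synpo2 without any 1 of the ICR wild type and B6 gallbladder samples, up to 0.125. Tagln and Flna lost theirs without ICR wild type gallbladder replicate 1 (limma adjusted p 0.108 and 0.0648), and Tpm1 without either ICR wild type gallbladder sample (limma adjusted p 0.0762 and 0.0661). All 25 passed without cystic duct replicate 1 and without replicate 2, but those fits also called far more genes of any kind, 28% and 16.6% of all tested genes as lower, against 8.61% with both samples. The calls draw on the spread of the gallbladder groups too: fitted on the 4 compared samples alone, or with array weights, limma called 0 members and 0 genes of all, with 25 and 24 members (2083 and 1871 of all genes) at an unadjusted p under 0.05 and adjusted p-values from 0.130 and 0.0621 upward.

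Markers of other cells also differed in the duct. The summed level of the hepatocyte list was 16.98 and 16.72 in cystic duct against 14.96 and 14.56 in ICR wild type gallbladder, and 7 of its 8 genes rose. That of the erythroid list was 14.30 and 12.98 against 11.13 and 10.00, with 3 of 4 tested genes higher. Vascular mural markers, the genes of the muscle and pericytes of vessels, summed to 11.23 and 11.75 in duct and 11.27 and 11.25 in gallbladder. Fibroblast markers had a median change of -0.64 with 3 of 8 lower, and epithelial markers one of -0.32 with 1 higher and 2 lower of 8. Endothelial markers summed to 10.93 and 11.25 in duct and 11.61 and 11.37 in gallbladder, with 2 of 7 lower. The cardiac muscle and mesothelium lists had 1 gene lower each. Of all 14696 tested genes 842 were called higher and 1265 lower. The part of these shifts in the members' changes was not tested.

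**Figure D3:**
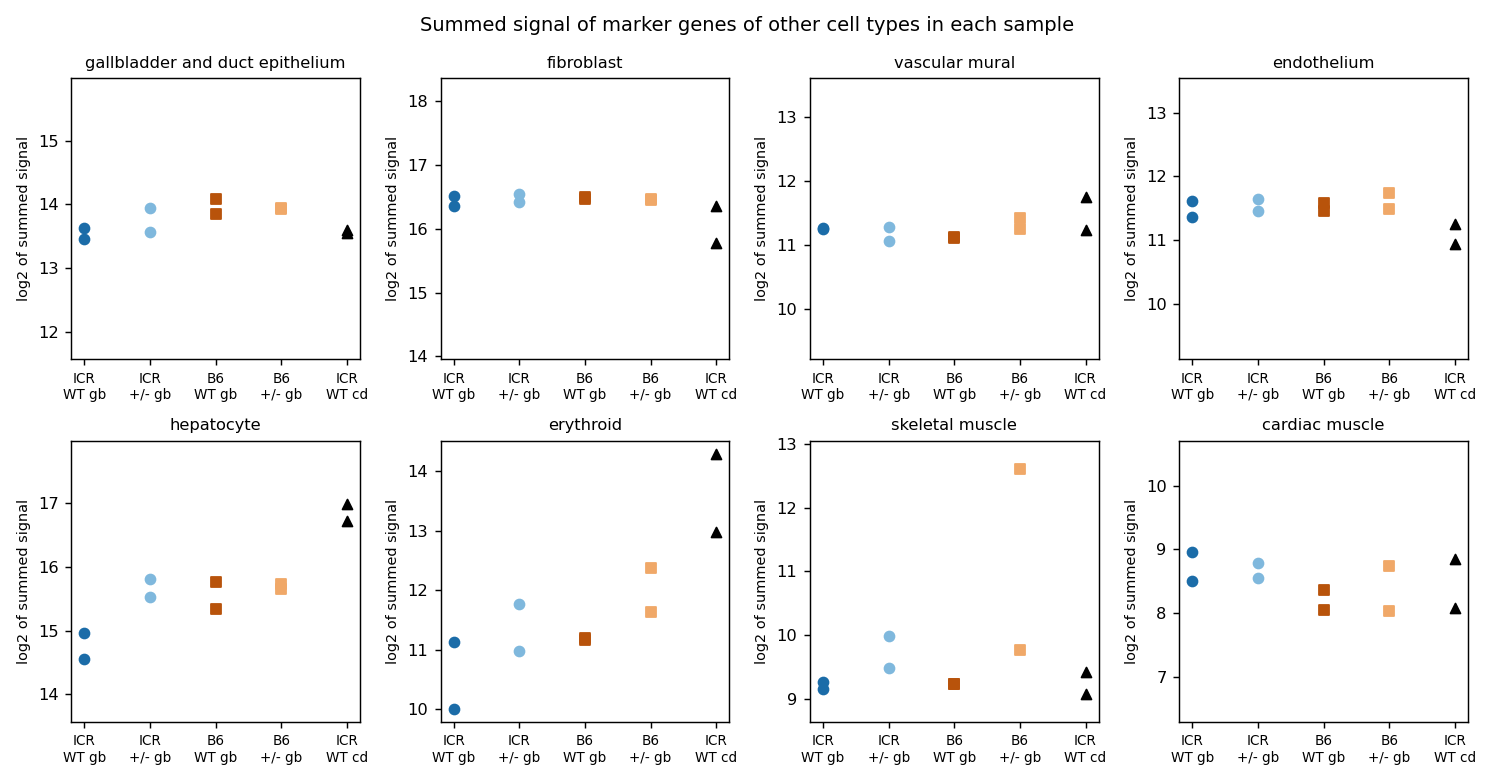
Log2 of the summed signal of marker genes of 8 other cell types (y axis, 1 panel a list) in each of the 10 samples, by group on the x axis (gb, gallbladder; cd, cystic duct; WT, wild type; +/-, Sox17+/-). Hepatocyte and erythroid markers are highest in the 2 cystic duct samples, and skeletal muscle markers in 1 B6 Sox17+/- gallbladder sample at 12.61.

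Other genes of contraction and of SRF and cyclic GMP signalling fell in the duct as well. Of 45 listed, 38 were tested, 13 fell and 0 rose, with a median change of -0.72, where 8.61% of all tested genes fell. Of the 38, 21 had an unadjusted p under 0.05, against 31.7% of all tested genes. They included Irag1, the target through which the cyclic GMP-dependent kinase limits calcium release, at -1.84 (SE 0.24), and Tpm4, a non-muscle tropomyosin, at -1.04 (SE 0.10). Nexn at -1.28, Fhl1 at -1.43, Filip1l at -1.13, Lpp at -1.15, Tgfb1i1 at -1.07 and Cavin1 at -0.77 are proteins of filaments, adhesion sites or caveolae. Hspb6 at -1.17 and Hspb1 at -1.01 are small heat shock proteins that act on actin. Myh9, a non-muscle myosin, was at -0.72, Rgs4, a brake on G protein signalling, at -1.40 and Mrtfb, another SRF coactivator, at -0.46.

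Members with several probe sets were compared set by set. Of the members' 72 probe sets above the limit 28 were called lower in cystic duct and 0 higher, where 5.54% of all 31526 tested probe sets were called lower in limma. An unadjusted p under 0.05 was found for 45 of the 72, against 27.2% of all probe sets. These 28 belong to 21 members. Mylk was read alike by a second set at -2.04 (SE 0.23) and Pde5a at -2.06 (SE 0.21). The 2 further sets of Acta2 read -0.97 (SE 0.78) and -0.47 (SE 0.28), and the second set of Myh11, a dim one at 5.56 to 6.24, read 0.49 (SE 0.21), and none of these passed. In all, 9 of the 72 sets were above 0. Averaging a gene's probe sets left 18 members called, 16 of them among the 25, where 913 of 14696 genes were called lower. Acta2, Cald1, Tpm1, Tpm2, Actn1, Synpo2, Cacna1c, Prkg1 and Ppp1r12b did not pass.

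Sox17+/- was compared with wild type gallbladder to ask how losing a copy of Sox17 affects the organ. No member passed: 0 of 34 were called over both strains, in ICR, in B6 or in the difference between the strains. In limma 3, 5, 1 and 0 members had an unadjusted p under 0.05 in these comparisons, where 3.55%, 5.28%, 1.31% and 1.03% of all tested genes had one. Of all tested genes 0.0544% were called over both strains, 0.0068% in ICR, 0.0068% in B6 and 0% in the difference, so few genes of any kind passed. The members' median change was -0.18 over both strains, where that of all genes was -0.00, and 28 of 34 members were below 0. In ICR the median was -0.23 with 25 below 0, and in B6 -0.18 with 29 below 0. The strains share no sample, and neither median was tested. Hepatocyte and erythroid markers lay the other way: over both strains the median change was 0.79 for the 8 hepatocyte genes and 0.84 for the 4 tested erythroid genes, medians that were not tested either. The summed hepatocyte level was 14.96 and 14.56 in ICR wild type against 15.81 and 15.52 in ICR Sox17+/-, with no overlap, and 15.76 and 15.33 in B6 wild type against 15.66 and 15.72 in B6 Sox17+/-, which overlap. The summed erythroid level was 11.13 and 10.00 against 11.77 and 10.97 in ICR, and 11.16 and 11.19 against 11.63 and 12.38 in B6. Their part in the members' values was not tested.

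**Figure D4:**
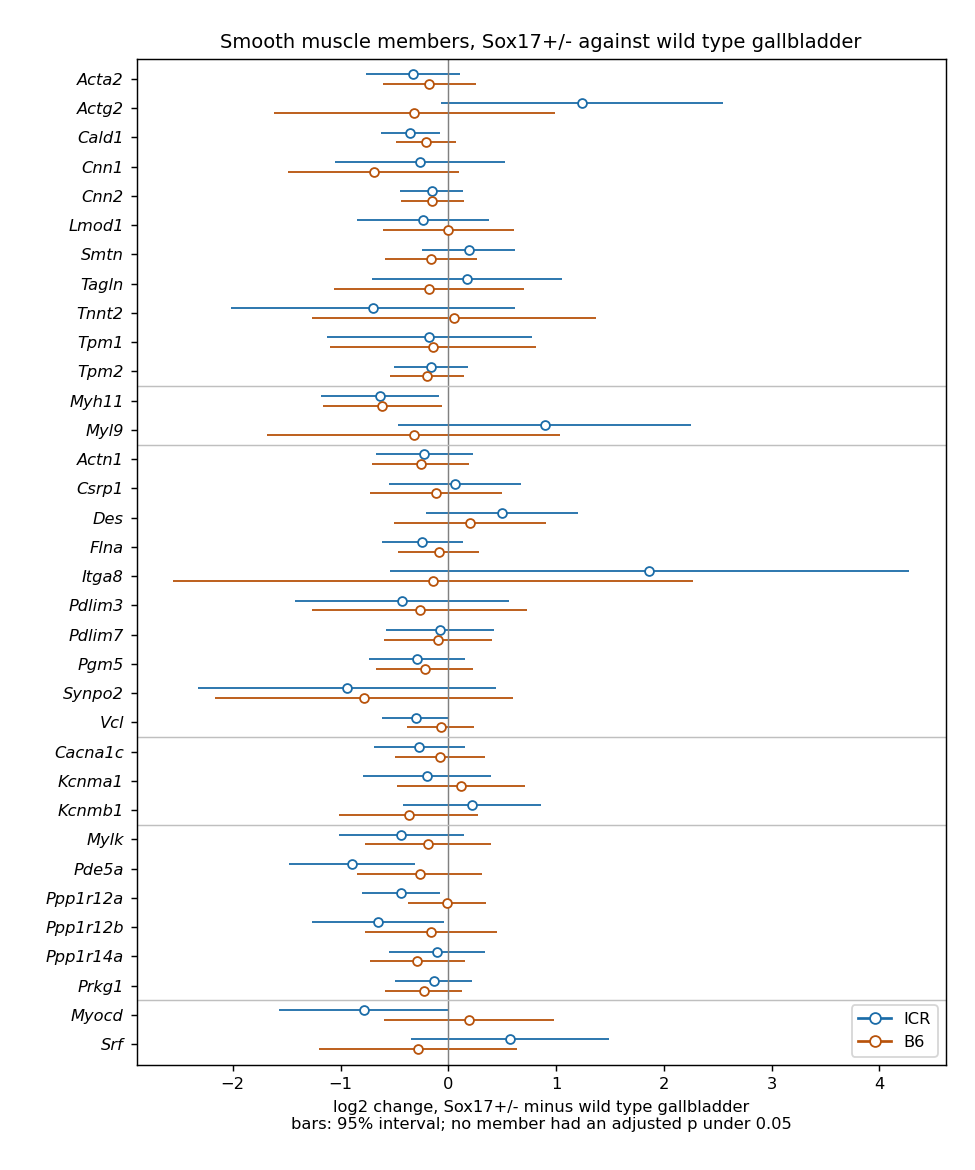
Log2 change of each tested member in Sox17+/- minus wild type gallbladder (x axis) in ICR and in B6, with members on the y axis grouped by role and bars for the 95% interval (n = 2 samples a group). Most points lie a little left of 0 in both strains, and every point is open because no member had an adjusted p under 0.05 in limma.

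Myh11 had the lowest p over both strains, at -0.62 (SE 0.17, limma adjusted p 0.661). Its Sox17+/- samples, at 9.21 and 9.60 in ICR and 9.67 and 9.78 in B6, lay below the wild type samples, at 10.06 and 10.01 in ICR and 10.47 and 10.21 in B6. The change was -0.63 (SE 0.24) in ICR and -0.61 (SE 0.24) in B6. With array weights limma called it (adjusted p 0.0389), the only member of 34 called in that fit, where 0.925% of all tested genes were. The other Myh11 set (1418122_at), a dim one, did not fall alike. Its means were 5.70 in wild type and 5.91 in Sox17+/- in ICR, and 5.74 and 5.73 in B6. Set by set, 0 of the members' 72 sets passed over both strains in limma, and 12 were above 0. An unadjusted p under 0.05 was found for 8 of the 72, against 928 of all 31526 tested sets. Cald1 was at -0.28 (SE 0.08) over both strains, with 12.83 and 12.96 in ICR Sox17+/- below 13.30 and 13.19 in wild type. Pde5a was at -0.58 (SE 0.18), and its change was -0.90 (SE 0.25) in ICR with no overlap of the pairs. In B6 one Sox17+/- sample, at 10.02, lay within the wild type range. Sox17+/- lay below wild type in every pair of samples in both strains in 11 of 34 members, against 5.99% of all tested genes. They were Acta2, Cald1, Tpm1, Tpm2, Myh11, Vcl, Actn1, Synpo2, Pgm5, Cacna1c and Ppp1r12b.

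The spread of the cystic duct pair widens the errors of these comparisons, and a fit on the 8 gallbladder samples gave the same changes with smaller errors for the members named next. Again 0 of 34 members passed over both strains, where 0.531% of all tested genes did, but 14 members had an unadjusted p under 0.05 as lower and 0 as higher, where 5.81% of all tested genes had one as lower. The 14 were Acta2, Actn1, Cald1, Cnn1, Myh11, Mylk, Pde5a, Pdlim3, Pgm5, Ppp1r12b, Synpo2, Tpm1, Tpm2 and Vcl. Myh11 came nearest, at -0.62 (SE 0.11, limma adjusted p 0.0675), followed by Cald1 at -0.28 (SE 0.05, limma adjusted p 0.102) and Ppp1r12b at -0.41 (SE 0.09, limma adjusted p 0.146).

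Within ICR the lowest p-values after Pde5a were those of Cald1 at -0.35 (SE 0.12) and Ppp1r12a at -0.44 (SE 0.16). Within B6 they were those of Myh11, Cnn1 at -0.69 (SE 0.34) and Cald1 at -0.21 (SE 0.12). Actg2, Myl9, Itga8 and Srf were above 0 in ICR, at 1.24, 0.90, 1.86 and 0.57, and at 0.27, -0.09, -0.00 and -0.08 without ICR wild type gallbladder replicate 1. Without replicate 2 in its place, limma called Actg2 at 2.21 (adjusted p 0.0274) and Itga8 at 3.72 (adjusted p 0.0219) as higher, in a fit that called 2.51% of all tested genes as higher in ICR.

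The difference between the strains' genotype changes (B6 minus ICR) had a member median of 0.03, and its lowest p-values were those of Myocd at 0.97 (SE 0.48), Actg2 at -1.56 (SE 0.80) and Ppp1r12a at 0.43 (SE 0.22). Without ICR wild type gallbladder replicate 1 the difference for Actg2 was -0.59 (SE 0.49), and without replicate 2 it was -2.52 (SE 0.48, limma adjusted p 0.0653). Myocd was at -0.78 (SE 0.34) in ICR and 0.19 (SE 0.34) in B6. Ppp1r12a was in B6 at -0.01, beside -0.44 in ICR. None of these differences passed, so no member is shown to respond differently in the 2 strains.

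Des and Tnnt2, which striated muscle also makes, were at 0.20 (SE 0.30) and 0.06 (SE 0.57) in B6. Beside them stands the skeletal muscle list. Its summed level was 12.61 and 9.77 in B6 Sox17+/- and 9.24 and 9.23 in B6 wild type. In ICR gallbladder it was 10.00 and 9.48 in Sox17+/- and 9.27 and 9.16 in wild type. Cystic duct read 9.08 and 9.42. In each strain both Sox17+/- samples lay above both wild type samples, with B6 replicate 3 the highest. The list's median genotype change over both strains was 1.22, with 0 of its 10 tested genes called. Its part in the members' values was not tested. In B6 Sox17+/- replicate 3 Des read 8.55, the highest of the 4 B6 values, and Tnnt2 9.05, within the range of B6 wild type. The actins of striated muscle were high there too, with Acta1 at 10.89 against 7.39 in replicate 4 and Actc1 at 10.28 against 8.08. Of the other contraction genes 0 of 38 passed for genotype in limma. The lowest p-values over both strains were those of Hspb6 at -0.49 (SE 0.17), Pln, the brake on the calcium pump, at -1.08 (SE 0.42) and Atp2a2, that pump, at -0.21 (SE 0.08). Pln, Hspb6 and Myh9 led in ICR, at -1.54, -0.61 and -0.25. Actc1, Acta1 and Hspb6 led in B6, at 2.11, 2.74 and -0.37, and Actc1, Rock1 and Orai1 in the difference, at 2.67, 0.35 and -0.65. An unadjusted p under 0.05 in limma was found for 4 of the 38 over both strains, 3 in ICR, 2 in B6 and 1 in the difference. The shares of all tested genes were 3.55%, 5.28%, 1.31% and 1.03%.

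B6 was compared with ICR gallbladder over both genotypes, which asks what the background itself contributes. A single member passed. Myocd was lower in B6, at -1.57 (SE 0.24, 2.96-fold, limma adjusted p 0.0258). This is 1 of 34 members, where 1.35% of all tested genes passed. Its 4 ICR values of 9.59, 9.11, 8.80 and 8.34 all lay above its 4 B6 values of 7.51, 7.09, 7.63 and 7.36. In the fit on the 8 gallbladder samples Myocd was again the only member called (limma adjusted p 0.00438), where 8.92% of all tested genes passed. The call passed in 13 of 21 alternative settings, with adjusted p-values of 0.00112 to 0.154 in limma and a change of -1.68 to -1.45 without 1 sample. It was lost with a replicate block (limma adjusted p 0.0678), and without ICR wild type replicate 1, either ICR Sox17+/- sample or any of the 4 B6 samples (limma adjusted p 0.0693 to 0.154), the 8 settings in which it did not pass.

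That value comes from 1 probe set (1425978_at). The other set of Myocd (1425808_a_at) read 5.54 and 5.37 in ICR wild type, 4.65 and 5.20 in ICR Sox17+/-, 5.43 and 5.06 in B6 wild type and 5.26 and 5.23 in B6 Sox17+/-. Its strain change was 0.06 (SE 0.24), so the 2 probe sets of Myocd disagree on the strain difference. For the cystic duct both were below 0, at -2.19 and -1.29 (SE 0.34, limma adjusted p 0.0523).

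The same held for other members when each probe set was tested on its own. In limma 8 of the members' 72 sets differed by strain, 7 lower and 1 higher in B6, where 5.92% of all tested probe sets did. Besides Myocd they belong to Cald1, Ppp1r12a, Ppp1r12b, Tpm1 and Vcl, and in these 5 genes the brightest set, which reads the gene here, did not pass. For Cald1 the set 1424768_at read 11.82, 11.21, 11.36 and 10.50 in ICR gallbladder and 8.19, 8.21, 7.69 and 7.39 in B6, a change of -3.35 (SE 0.22), while the brightest set (1424769_s_at) was at -0.20 (SE 0.08). A further Cald1 set (1424770_at) was at -2.87 (SE 0.37) and another (1433147_at) at -1.45 (SE 0.25).

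Ppp1r12a was at -2.18 (SE 0.35) by 1429487_at and at 0.03 (SE 0.11) by its brightest set. Tpm1 was at -1.65 (SE 0.26) by 1456623_at beside -0.21 (SE 0.29), and Ppp1r12b at -1.41 (SE 0.16) by 1445850_at beside 0.06 (SE 0.19). Vcl alone was higher in B6, at 0.89 (SE 0.13) by 1416157_at. That set read 6.13 and 5.94 in B6 wild type, 4.98 and 4.97 in B6 Sox17+/- and 4.34 to 4.79 in ICR gallbladder, all dim signals. What separates the probe sets of a gene by strain was not tested.

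**Figure D5:**
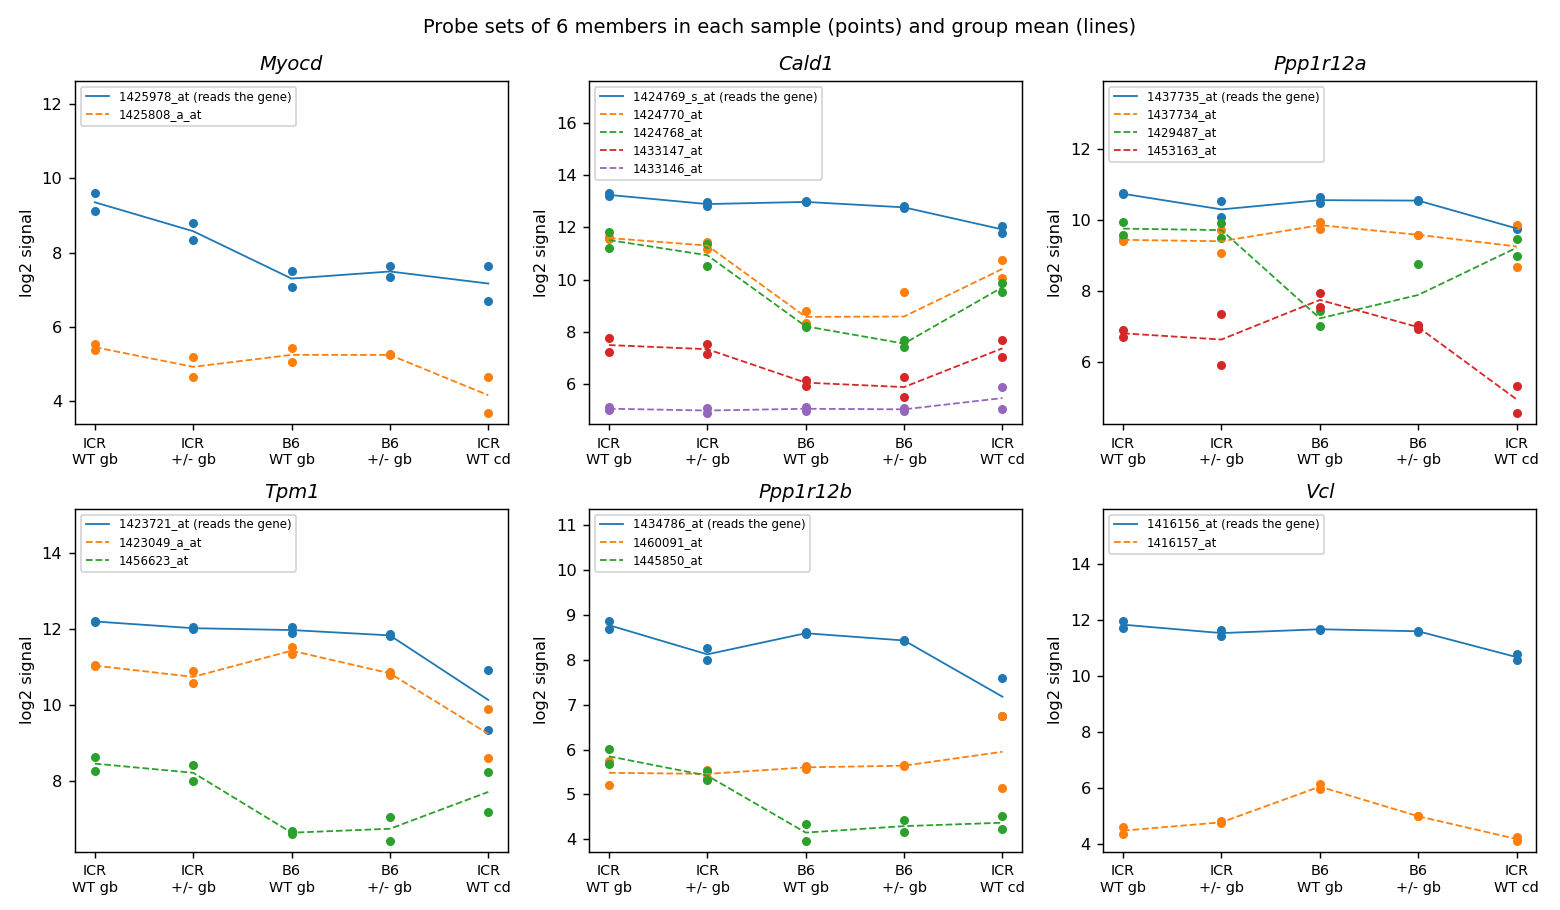
Log2 signal (y axis) of every probe set above the limit for Myocd, Cald1, Ppp1r12a, Tpm1, Ppp1r12b and Vcl, with points for samples, lines for group means, a solid line for the set that reads the gene, and groups on the x axis (gb, gallbladder; cd, cystic duct; WT, wild type; +/-, Sox17+/-). In Cald1 2 dashed lines drop from ICR to B6 by over 2 log2 units while the solid line stays nearly level.

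Of the other members, Cald1 at -0.20 (SE 0.08) and Pgm5 at 0.31 (SE 0.14) had the next lowest p-values, and the median member change by strain was 0.01, where that of all genes was 0.05. Of the other contraction genes 0 of 38 passed in limma, 2 with an unadjusted p under 0.05 where 12.7% of all tested genes had one, led by Myl6b at -0.64, Myl12a at -0.42 and Filip1l at -0.35. The labels number the ICR samples 1 and 2 and the B6 samples 3 and 4, and name no array batch, so strain and any batch that follows it cannot be told apart. The 3′ minus 5′ signal of the Gapdh control, a sign of RNA or cRNA quality, was 0.43 to 0.93 in ICR gallbladder and 0.00 to 0.30 in B6. That of the beta-actin control overlapped between the strains, at 0.56 to 1.40 in ICR gallbladder and 0.92 to 1.20 in B6. Their part in the strain values was not tested.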

How the data were processed

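The authors deposited 1 log2 signal for each probe set of an Affymetrix mouse array. Trizol-extracted total RNA was labelled as biotinylated cRNA, per the labels' protocols; the sources used here do not give the background correction, summarization or normalization. Values ran from 2.20 to 15.15. Groups came from sample titles and label fields. The labels hold genotype and stage under each other's tag, and the values were used. No column belonged to another sample (0).

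Of 45101 probe sets, 64 controls were left out, 34945 had 1 gene in the platform table, 932 had several and 9160 had none listed, and only those with 1 gene were used. Because sample distributions differed, values were quantile normalized. A gene was read by its single-gene probe set with the highest mean, sets with the suffix _x_at being used only where no other existed. Genes under the 30th percentile of mean signal were left out. Reading sets with the suffix _s_at (Acta2, Cald1, Srf) can match more than 1 transcript, and close actin paralogs may share signal.

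In limma 3.58.1 (R 4.3.3), lmFit with 1 mean per group over all 10 samples and eBayes with a trend were used, with 5 residual and 7.95 total degrees of freedom and Benjamini-Hochberg adjustment over 14696 genes. The script was tested on simulated data with the same spread in every gene and sample, so the wider spread of the cystic duct pair was not covered. A summed level is the log2 of summed linear signals. Values in every sample are given for members past the threshold in any comparison, for Acta2, Actg2, Myh11, Tagln, Cnn1, Des, Mylk, Kcnmb1, Myocd and Srf, and for the 3 members with the lowest p in each comparison. Other contraction genes are named where they passed, or the 3 with the lowest p. The members and lists were chosen with earlier results of these data known. Alternatives, changed 1 at a time, were the deposited values, median centring, a filter at the 50th percentile or none, averaging or separately testing a gene's probe sets, no trend, array weights, fewer samples in the fit, a replicate block and leaving out each sample.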

Additional observations from a re-analysis of the deposited data

How the results depend on the processing

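The members' median cystic duct change of -1.28 was -1.54 on the values as deposited and -1.44 with samples centred on their medians, scalings that moved the median of all genes to -0.26 and -0.16, and -0.91 after averaging each gene's probe sets and -0.97 over every probe set. With array weights or only the compared samples 0 members and 0 genes of all were called in cystic duct, instead of 25 members. The other settings that kept all samples called 18 to 26 members, all as lower. The 18 came from averaging probe sets, where 913 of 14696 genes were called lower, and the 26 from the values as deposited, where 1604 were. Over both strains array weights called 1 member for genotype (Myh11). In ICR the members' median genotype change was -0.36 as deposited, where that of all genes was -0.16. Leaving out 1 ICR wild type gallbladder sample moved the ICR changes of Actg2 and Itga8, as described with the genotype results. The members' median difference between strains was -0.11 after centring, where that of all genes was -0.08. For strain, 1 member was called in the report's fit, 2 after averaging probe sets (Cald1 and Myocd), 6 with every probe set, 2 with array weights (Cald1 and Myocd) and 0 to 3 without 1 sample, the 3 being Myocd, Actg2 and Itga8 without ICR wild type gallbladder replicate 2. Of all 14696 tested genes, 198 were called for strain in the report's fit, 492 after averaging probe sets and 1602 with array weights. Leaving out 1 sample also moved the number of all genes called for strain, which rose without ICR wild type gallbladder replicate 2. That fit leaves 1 sample in a group, so the 3 calls there cannot be read as a result of the members alone. Testing every probe set called 1865 of 31526 sets for strain. With array weights the share of members called for strain, 2 of 34, was below that of all genes. Beyond fewer samples or probe sets in a fit, the cause of the differences between settings was not tested. No called member changed direction in these alternatives.

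The labels give groups shared replicate numbers but do not say what samples of 1 number share. Over genes, replicate differences correlated at 0.38 between ICR wild type and ICR Sox17+/- gallbladder. They correlated at 0.07 and 0.09 between these 2 groups and cystic duct, and at 0.22 between the B6 groups. These values cannot show whether samples of 1 number share a litter or a batch. With a replicate block 0 members were called for strain, where 192 of 14696 genes were, and 20 as lower in cystic duct, where 1002 genes were. That fit called 0 members in each genotype comparison, where 1 gene was called over both strains and 0 in the others. Detection calls were not used here, so signals near the limit of 4.47 may be background, and 2 samples a group cannot show small changes.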
